A study of Mus musculus with 103 samples.

Results

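Calcr, the gene of the calcitonin receptor, was used to divide the single muscle stem cells of 1 young mouse into wells with and wells without its transcript, so the members were chosen by their measured Calcr level. Of 64 wells of this mouse, the 54 with at least 1000 Ensembl genes at 1 TPM or more were kept. Calcr lay at 1 TPM or more in 24 of them and under 1 TPM in the other 30. TPM, a length-corrected transcript abundance, is a share of all transcripts in a well, the added spike-in RNAs included. The study sequenced muscle stem cells of untreated C57BL/6 mice at several ages as bulk libraries and as single cells, 103 samples in all, 95 of them wells. The wells came from 1 mouse of 3 months and 1 mouse of 24 months. Muscle stem cells are the source in the labels, while the design text speaks of myoblasts. Culture in a medium with fibroblast growth factor 2 is described, but not whether RNA was taken before or after it. Both groups of wells compared here share mouse, strain, age and treatment.

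Muscle stem cells, also called satellite cells, rest between the muscle fibre and its basement membrane and divide after injury. The calcitonin receptor is a membrane receptor that couples to the stimulatory G protein, raises cyclic AMP and activates protein kinase A. In adult mouse muscle it marks quiescent satellite cells, takes part in holding them in quiescence and in their niche, and its transcript is lost when the cells are activated. In single-cell libraries a transcript can be present and yet not captured, so a well without Calcr is not shown to lack the receptor.

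All wells being from 1 mouse, wells are not replicates of a condition, and no test was made between the groups. The values below describe these 54 wells. Because the rule used Calcr itself, its levels are also only described. In the 24 wells with Calcr it ranged from 1.08 to 562.5 TPM with a median of 35.7 TPM. The values just inside the threshold were 1.08, 1.23, 1.27 and 1.72 TPM. Just outside it lay 0.99, 0.84 and 0.3 TPM, and the remaining 27 wells stood at 0. The wells with Calcr were spread over a wide range: 6 lay between 1 and 10 TPM, 18 at or above 10 TPM and 8 at or above 100 TPM. None of the 10 wells left out, which held 7 to 852 detected genes, had any Calcr. With so few genes detected, this says nothing about those cells. The share with Calcr among the wells kept was 44.4% (exact Clopper-Pearson 95% interval 30.9 to 58.6%, counting error between wells only).

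**Figure D1:**
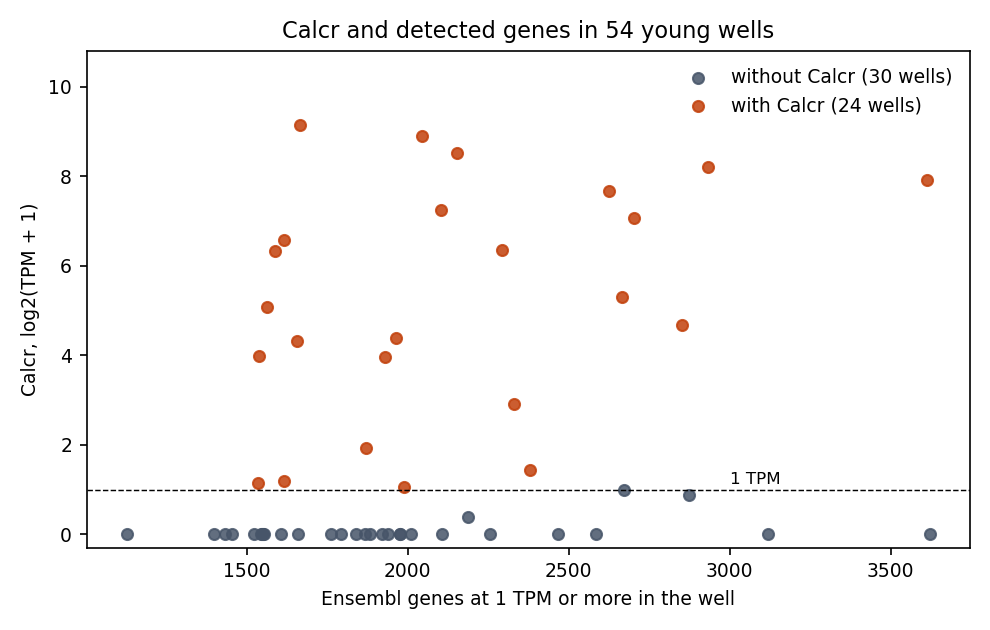
Calcr level as log2(TPM + 1) against the number of Ensembl genes at 1 TPM or more, 1 point per young well. The 24 wells with Calcr and the 30 without cover nearly the same range of detected genes, 1536 to 3614 and 1127 to 3621.

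The Calcr gene lies on chr6:3685680-3764714, minus strand (GRCm38, GENCODE vM21). It is the host of microRNAs: the table of RefSeq microRNAs on GRCm38.p6 places miR-489-3p at chr6:3721922-3721944 and miR-653-5p at chr6:3721355-3721375, both on the minus strand, inside the gene and outside its annotated exons. They are shown because they lie in the same transcription unit as Calcr, and miR-489 is itself known as a regulator of satellite cell quiescence. Capitals mark the seed, bases 2 to 8. Mature microRNAs were not measured in these libraries.
mmu-miR-489-3p: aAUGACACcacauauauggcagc
mmu-miR-653-5p: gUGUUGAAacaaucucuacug
The seeds differ, so the pair does not form a seed family. None of the 13 listed neighbours of Calcr on its chromosome, among them Gng11, Tfpi2 and Vps50, reached the 10 wells needed for a comparison.

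Wells with Calcr held slightly more detected genes. The lowest, median and highest numbers were 1536, 2016 and 3614 with Calcr and 1127, 1875 and 3621 without. The mean was 2134 ± 544 (SD, n = 24 wells) against 1975 ± 556 (SD, n = 30 wells), a gap smaller than the spread within either group. Spike-ins took a median of 62.1% of TPM with Calcr and 65.8% without. Mitochondrially encoded transcripts took a median of 2.93% and 3.04%. Calcr wells were unevenly placed over the library index numbers in the titles: 5 of 6 wells with index N703, 6 of 8 with N706 and 6 of 8 with N505 had Calcr, against 1 of 7 with N501. The fits below include the number of detected genes, and alternatives include the index numbers or leave them out in turn; beyond these values, their part in the differences was not tested.

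The wells kept carried satellite cell markers in both groups. Of 9 markers other than Calcr, wells with Calcr had 2 to 8 at 1 TPM or more, with a median of 6, and wells without had 0 to 8, with a median of 5. Ptprc, Adgre1, Lyz2 and Csf1r of leukocytes and Cdh5 and Kdr of endothelium were listed at 0 in all 54 wells. Pdgfra of fibro-adipogenic progenitors reached 1 TPM in none. Other leukocyte markers did occur: at least 1 of 12 was found in 3 wells with and 2 wells without Calcr. Their summed level reached 259 TPM with Calcr and 82.6 TPM without. Smooth muscle and pericyte markers were found in both groups: at least 1 of 9 was at 1 TPM or more in 20 wells with and 19 wells without Calcr. Their summed level ran from 0 to 578 TPM with Calcr and from 0 to 4898 TPM without. Acta2 was found in 10 and 11 wells, Tagln in 9 and 13, while Myh11 stood at 0 in all wells with Calcr and was found in 3 without. A pair of wells without Calcr stood apart: the well with indices N701-N502 had 0 of 9 satellite markers and 5 of 9 smooth muscle markers, and the well with N707-N501 had 6 and 7. Counts are therefore also given without this pair. Markers of fibro-adipogenic progenitors that are less specific, such as Col3a1 and Dcn, occurred in both groups, with at least 1 of 12 in every well and summed levels of 42.2 to 1576 TPM with Calcr and 11.6 to 1537 TPM without. At least 1 of 10 endothelial markers was found in 3 and 11 wells, mostly Tek, and at least 1 of 15 myofibre markers in 8 and 7 wells. The summed myofibre level reached 1203 TPM in a well with Calcr and 138 TPM in a well without. The part of these transcripts in single differences was not tested.

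For each gene, log2(TPM + 1) was fitted on the Calcr group and on log2 of the number of detected genes. The group term is called the adjusted difference, wells with minus wells without Calcr. It is a difference of mean log2(TPM + 1) at equal numbers of detected genes. Wells at 0 enter these means, so it mixes detection with level and cannot be read as a fold. The added 1 also makes it smaller for low genes. Among 3356 genes found at 1 TPM or more in at least 10 of the 54 wells, 23 (0.685%) had an adjusted difference of 2 or more, called higher here, and 27 (0.805%) one of -2 or less, called lower, together 50 genes or 1.49%. Without the adjustment the split was 37 (1.10%) higher and 12 (0.358%) lower, and the median of all genes was 0.14, against -0.02 with it. Without the pair of wells that stood apart the counts were 20 higher (0.617%) and 23 lower (0.709%) of 3243 genes. In all 50 genes called, the ranges of values of the groups overlapped. Wells at 0 in both groups are enough for this, and it was not counted for the other genes. Only for Stag2 was the difference larger than the larger SD among wells of the groups, so for the other 49 it was within the spread between wells. The rule chose wells by Calcr alone, and these counts are a description of the same split. For the counts of listed genes below, the values over all 3356 genes are 0.685% higher, 0.805% lower and 1619 above 0.

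**Figure D2:**
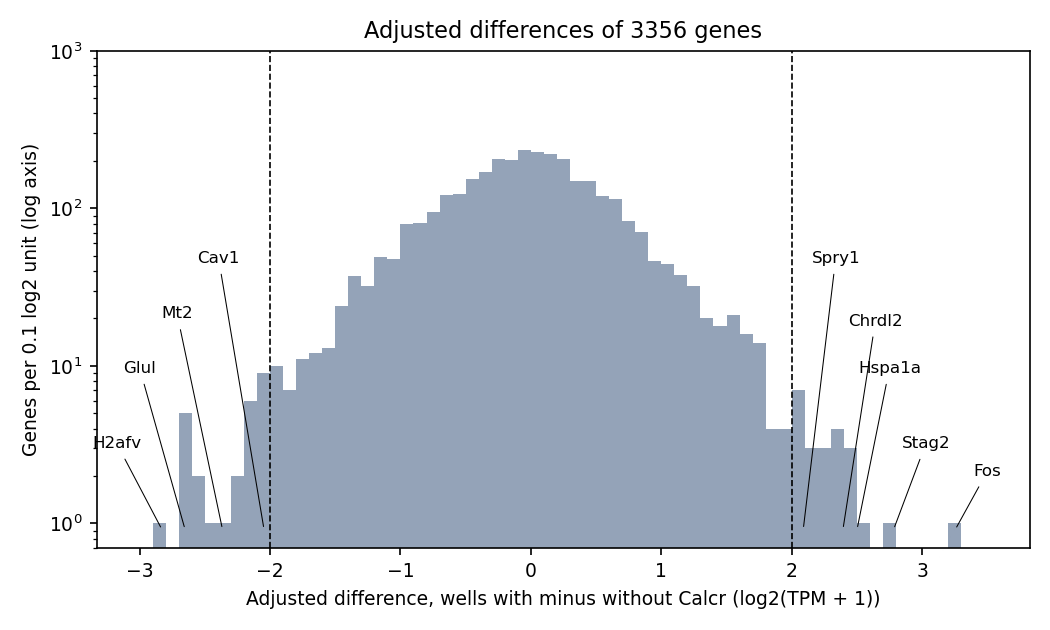
Adjusted differences of 3356 genes in bins of 0.1 log2 unit, with the number of genes on a log axis. Dashed lines mark the size of 2 log2 units used to call 23 genes higher and 27 lower. Fos at 3.25 and H2afv at -2.82 are the extremes.

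The immediate early genes, which are transcribed within minutes of a stimulus and also respond to handling of cells, lay mostly above 0 in this comparison. Of 32 listed genes, chosen like all lists with earlier results of these data known, 27 could be compared. Of these 23 lay above 0 and 4 below, 2 were called higher and 0 lower, and the median adjusted difference was 0.71. Over all genes 1619 of 3356 lay above 0, and the median was -0.02. Fos, a subunit of the AP-1 transcription factor, had the largest difference of all genes. Its lowest, median and highest values were 0, 1969 and 7747 TPM with Calcr and 0, 408 and 4620 TPM without. It was detected in 23 of 24 and 21 of 30 wells, and the adjusted difference was 3.25. The groups overlapped over most of their range, but 9 of 30 wells without Calcr had Fos under 1 TPM, against 1 of 24 with it. Among the wells in which Fos was detected, the medians were 2047 and 787 TPM. The mean log2(TPM + 1) of Fos was 9.87 ± 3.21 (SD, n = 24 wells) with Calcr and 6.27 ± 4.80 (SD, n = 30 wells) without.

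Zfp36, an RNA-binding protein that speeds the decay of transcripts with AU-rich elements, followed with a difference of 2.20. It ranged from 0 over a median of 185 to 2058 TPM with Calcr and from 0 over 16.9 to 2106 TPM without, so the maxima were alike and the medians far apart. Under the size for a call lay the nuclear receptor gene Nr4a1 at 1.90, Ier2 at 1.69 and the AP-1 gene Junb at 1.52. Junb was detected in 22 of 24 and 22 of 30 wells, with medians of 74.4 and 21.3 TPM. Egr1, a zinc finger transcription factor, was near universal, in 24 of 24 and 29 of 30 wells, with medians of 1719 and 755 TPM and an adjusted difference of 0.99. Against this direction stood Myc, found in 12 and 20 wells, with a difference of -1.47. Zfp36, Junb, Arhgap24, Rbm25, Glul, Mt2, Cav1 and several others overlap a gene on the other strand. Their reads cannot be told apart from that gene's unless strand was used in counting, which is not given in the sources used here.

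For Fos the promoter is shown because Fos led the list and because cyclic AMP is the messenger of the calcitonin receptor. A link between the receptor and Fos was not tested. The sequence runs from 250 bases before to 50 after the start, on chr12:85473640-85473939, plus strand (RefSeq, GRCm38.p6). Capitals mark TGACGT, the core of the cyclic AMP response element, searched on both strands.
Fos: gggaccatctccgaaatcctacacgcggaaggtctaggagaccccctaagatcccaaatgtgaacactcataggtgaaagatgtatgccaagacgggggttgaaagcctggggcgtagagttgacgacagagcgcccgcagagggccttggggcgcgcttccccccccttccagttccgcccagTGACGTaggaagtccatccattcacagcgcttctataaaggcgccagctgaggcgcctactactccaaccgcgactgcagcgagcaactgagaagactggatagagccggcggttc
The core occurs once in this window. It was found in 7.51% of the 32851 promoters of the table and for 18.1% of the 2128 compared genes with a promoter there. The full palindrome TGACGTCA, which contains the core, was not in the window. It was found in 1.79% of all promoters and for 4.51% of those genes. A gene counted if any of its promoters matched, so shares of genes and shares of promoters are unlike measures. Neither of the Calcr promoters in the table, which start from different first exons, held the core. Of the genes called higher, the table held promoters for 18 of 23, and of the genes called lower for 15 of 27. The core was found for 1 of these 18, Fos itself, and for 2 of these 15. Such numbers are too few for a comparison of motif shares between the sets.

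Heat shock genes formed the list with the highest median. This list too was chosen with earlier results of these data known, so its median only describes the split. Of 18 members 17 could be compared, of which 14 lay above 0 and 3 below. Their median adjusted difference was 1.02, with 3 called higher, 0 lower and 10 at 1 or more. Over all 3356 genes 23 were called higher and 27 lower, 1619 lay above 0 and 234 at 1 or more. Hspa1a, an inducible Hsp70 chaperone, ranged from 0 over a median of 299 to 1257 TPM with Calcr. Without Calcr it ranged from 0 over 22.9 to 1373 TPM. It was detected in 22 of 24 and 18 of 30 wells and had an adjusted difference of 2.50. The highest single value was thus in a well without Calcr, while low or absent Hspa1a was more frequent there. The neighbouring gene Hspa1b, which encodes a near identical protein, had medians of 121 and 7.76 TPM and a difference of 2.42. Dnajb1, a co-chaperone of Hsp70, had medians of 231 and 0 TPM and a difference of 2.02. Bag3, another partner of Hsp70, lay just under the size for a call at 1.96, in 19 of 24 and 15 of 30 wells.

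These 4 genes were often found together. All 4 were detected in 16 of 24 wells with Calcr and in 7 of 30 without, and none of the 4 in 0 and 5 wells. Exactly 3 were detected in 2 and 8 wells, 2 in 4 and 2 wells, and 1 in 2 and 8 wells. The 4 were named for their large differences in this split, so the counts only describe it again. They are not adjusted for detected genes. The counts of Hspa1a and Hspa1b are uncertain as separate values. Their transcripts aligned over 2478 positions with 94.4% identity and an identical run of 638 bases, and Hspa1a also overlaps Gm20481 on the other strand. The pair was detected together in 37 wells and as 1 gene alone in 5. Their promoters are shown because both genes were called higher and because the windows are nearly copies of each other. They lie on chr17:34972107-34972406 (Hspa1a) and chr17:34959189-34959488 (Hspa1b), both on the minus strand (RefSeq, GRCm38.p6). Capitals mark the positions at which they differ, 4 of 300, an identity of 98.7%.
Hspa1a: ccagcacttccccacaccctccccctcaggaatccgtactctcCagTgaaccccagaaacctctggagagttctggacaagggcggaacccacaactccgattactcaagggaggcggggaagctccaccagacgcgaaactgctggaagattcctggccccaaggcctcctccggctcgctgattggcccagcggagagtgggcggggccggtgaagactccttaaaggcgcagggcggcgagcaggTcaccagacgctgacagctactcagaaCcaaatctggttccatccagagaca
Hspa1b: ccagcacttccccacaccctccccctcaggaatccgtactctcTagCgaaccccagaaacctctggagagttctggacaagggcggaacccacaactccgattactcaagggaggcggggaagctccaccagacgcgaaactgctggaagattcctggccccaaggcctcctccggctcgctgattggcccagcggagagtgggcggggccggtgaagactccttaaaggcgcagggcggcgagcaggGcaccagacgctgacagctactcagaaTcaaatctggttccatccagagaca
Each window holds 1 match to the heat shock element GAANNTTC, searched on both strands, outside the differing positions. That pattern was found in 7.86% of all promoters of the table.

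Satellite cell identity genes lay on both sides of 0. Of 31 listed genes other than Calcr, 28 could be compared, and the median adjusted difference was 0.18. Of these 28, 2 were called higher, 2 lower and 16 lay above 0. Over all 3356 genes 23 were called higher, 27 lower and 1619 lay above 0. The 2 listed genes called higher were Chrdl2 and Spry1. Chrdl2, a secreted antagonist of bone morphogenetic proteins, ranged from 0 over 21.2 to 801 TPM with Calcr and from 0 over 0 to 249 TPM without. It was found in 18 of 24 wells (75.0%, exact interval 53.3 to 90.2%) and in 12 of 30 (40.0%, 22.7 to 59.4%), with an adjusted difference of 2.39. Most wells with Calcr thus had Chrdl2 and most without it did not, but 6 and 12 wells went the other way. Spry1, an inhibitor of growth factor receptor signalling needed for the return of satellite cells to quiescence, was found in 15 of 24 and 9 of 30 wells. It ranged from 0 over 4.94 to 477 TPM with Calcr and from 0 over 0 to 305 TPM without, a difference of 2.09.

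The transcription factors of the lineage were found in both groups. Pax7, which specifies satellite cells, was detected in 18 of 24 wells with Calcr and in 20 of 30 without. Its highest values were 228 and 126 TPM, its medians 10.2 and 4.54 TPM, and the adjusted difference was 0.26. Both were found in 18 wells, Pax7 alone in 20, Calcr alone in 6 and neither in 10. Myf5, a myogenic factor already transcribed in quiescent cells, was found in all 24 wells with Calcr, at 42.9 to 2664 TPM with a median of 700.4 TPM. Without Calcr it was found in 26 of 30, from 0 to 1707 TPM with a median of 292 TPM. Its difference of 1.75 lay under the size for a call. Pax3 and Myog, the factor of terminal differentiation, were detected in 0 of 54 wells.

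Surface and adhesion markers varied in sign. Cd34 was found in 16 and 23 wells with a difference of 0.21, and Sdc4 in 23 and 29 wells with -0.37. Cdh15, or M-cadherin, was found in 7 of 24 and 3 of 30 wells (0.86), and the receptor gene Fgfr4 in 15 and 11 (0.67). Vcam1 was found in 8 and 14 wells (-1.07) and Cxcr4 in 6 and 12 (-0.99). The integrin gene Itga7, found in 5 and 3 wells, was too rare to be compared. Cd47, the "don't eat me" signal named in the study's title, was found in 13 of 24 and 15 of 30 wells with medians of 5.81 and 0.90 TPM and a difference of 0.75. Wells thus held Calcr and Cd47 together in 13 cases, Calcr alone in 11, Cd47 alone in 15 and neither in 15.

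The 2 satellite identity genes called lower were Musk and Cav1. Musk, the receptor kinase of the neuromuscular junction, ranged from 0 over 0.39 to 157 TPM with Calcr and from 0 over 27.03 to 461 TPM without. It was found in 8 of 24 and 18 of 30 wells, and the adjusted difference was -2.53. Cav1, the main protein of caveolae, was found in 12 and 20 wells with medians of 13.6 and 62.6 TPM and a difference of -2.04. In these genes the wells without Calcr were more often positive and reached the higher values, with zeros in both groups.

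Among the other genes called lower, the histone variant gene H2afv led. It ranged from 0 over 0 to 397 TPM with Calcr and from 0 over 34.6 to 333 TPM without. It was found in 4 of 24 wells (16.7%, 4.74 to 37.4%) and 17 of 30 (56.7%, 37.4 to 74.5%), with a difference of -2.82. Sdha, a subunit of succinate dehydrogenase, followed at -2.66, in 3 and 13 wells and with maxima of 24.1 and 556 TPM. Glul, glutamine synthetase, stood at -2.65, in 6 and 19 wells and with maxima of 44.3 and 938 TPM. For both genes the highest value of the wells with Calcr was far under that of the wells without, and each group had wells at 0. Next came Tmem256 at -2.64, Dynll1 of the dynein motor at -2.61, the calcium-binding S100a11 at -2.58 and the calmodulin gene Calm2 at -2.45. Over all settings run, Calm2 ranged from -3.48 to -0.57 and S100a11 from -3.47 to -1.37.

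Mt2, a metallothionein that binds zinc and responds to metals and glucocorticoids, was an abundant lower gene. It ranged from 0 over 154 to 1834 TPM with Calcr and from 0 over 551 to 3297 TPM without, and was found in 17 of 24 and 28 of 30 wells, a difference of -2.36. Among the wells in which it was detected, the medians were 477 and 609.5 TPM, so presence differed more than level. Among the 22 wells with 2000 or more detected genes the sign turned, to 0.26. Clcf1 (-2.20), Hipk1 (-2.19) and Bcap31 (-2.15) closed the 12 largest lower differences, and Cav1 above was a further named gene called lower.

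The higher genes outside these lists had varied functions. Stag2, a subunit of cohesin, ranged from 0 over 18.3 to 268 TPM with Calcr and from 0 over 0 to 160 TPM without. It was detected in 18 of 24 and 6 of 30 wells, the widest gap in detection among the named higher genes, and differed by 2.78. Atf4, the transcription factor of the integrated stress response, was found in 20 of 24 and 20 of 30 wells, with medians of 221 and 6.5 TPM and a difference of 2.58. Id3, an inhibitor of basic helix-loop-helix factors, was found in 23 of 24 and 26 of 30 wells, with medians of 972 and 361 TPM and a difference of 2.34. The level also differed among the wells in which they were detected, with medians of 255 and 53.025 TPM for Atf4 and 987 and 498 TPM for Id3. Myeov2 (2.42), the cyclin I gene Ccni (2.35), the splicing factor gene Rbm25 (2.33), Arhgap24 (2.28) and the vitronectin gene Vtn (2.28) completed the named higher genes.

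**Figure D3:**
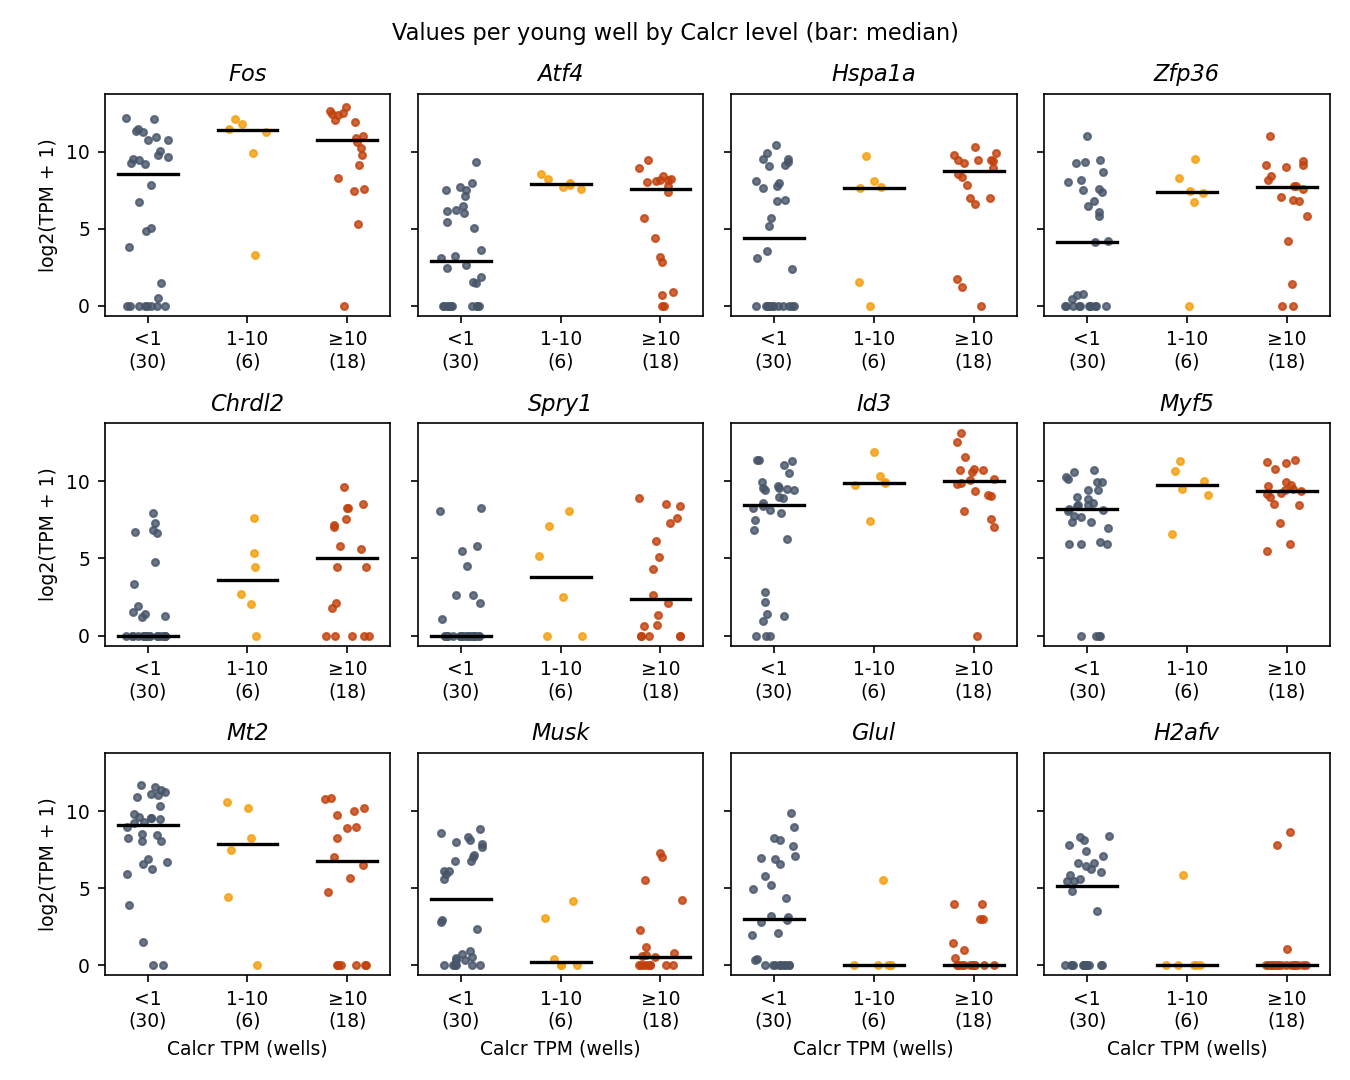
Values of 12 genes as log2(TPM + 1) in each young well, by Calcr under 1 TPM (30 wells), from 1 to under 10 TPM (6 wells) and at 10 TPM or more (18 wells); bars are medians. In each panel the classes overlap.

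The wells with Calcr were also looked at by its amount, though only 6 of them lay from 1 to under 10 TPM. Fos had a median of 1717 TPM in the 18 wells with 10 TPM or more of Calcr, 2684 TPM in those 6 wells, and 408 TPM in the 30 wells under 1 TPM. Atf4 had medians of 189.6, 236 and 6.5 TPM in the same order. For Fos and Atf4 the wells with little Calcr were thus at least as high as those with much. Hspa1a had medians of 432, 203 and 22.9 TPM, and Chrdl2 of 34.3, 13.3 and 0 TPM, with the class of little Calcr in between. Stag2 was detected in 14 of 18, 4 of 6 and 6 of 30 wells, and H2afv in 3 of 18, 1 of 6 and 17 of 30. Cav1 was different: its medians were 62.5, 0 and 62.6 TPM, so that only the 6 wells with little Calcr stood low. These 6 wells also stood lowest for Calm2, with medians of 69.6, 0 and 117 TPM, and S100a11, with 8.38, 0 and 102 TPM. For Dynll1 they lay in between, with 3.6, 66.5 and 108 TPM. With a threshold of 10 TPM in place of 1 TPM, 28 genes were higher and 22 lower, of which 8 and 8 were also called at 1 TPM.

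The differences also varied between wells with fewer and with more detected genes. Whether this goes beyond the spread between wells was not tested. The 54 wells were ranked by detected genes and cut into 3 classes of 18, which held 7, 7 and 10 wells with Calcr. For Fos the mean log2(TPM + 1) with and without Calcr was 7.49 and 6.37 in the class with the fewest detected genes, 11.04 and 5.11 in the middle class, and 10.7 and 7.71 in the class with the most. Chrdl2 behaved alike, with 2.16 and 1.53, then 6.26 and 0.83, then 4.39 and 3.12. For Fos and Chrdl2 the sign held in each class, and the middle class had the widest gap. Stag2 had its widest gap in the class with the fewest genes, 4.55 and 1.04, and its narrowest in the class with the most, 2.90 and 1.15. H2afv was found in 0 of 7, 0 of 7 and 4 of 10 wells with Calcr from the class with the fewest genes to that with the most, and in 7 of 11, 5 of 11 and 5 of 8 wells without. For Calm2 the means with and without Calcr were 0.83 and 5.50, then 5.29 and 6.95, then 6.14 and 6.64. Its gap was thus widest in the class with the fewest genes and small in that with the most.

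The signalling lists around the receptor had medians near that of all genes. Of 34 genes of cyclic AMP and protein kinase A signalling, 17 could be compared, 0 were called in either direction and the median was 0.18. The phosphodiesterase gene Pde4b, which degrades cyclic AMP, had the highest value at 0.84 and the anchoring protein gene Akap9 the lowest at -1.19. None of the Ramp genes, whose products pair with the receptor to change its ligands, reached the 10 wells needed for a comparison. Ramp1 was found in 0 and 1 wells. Of the 8 genes in the list of the receptor's partners, Calcr apart, only Calcrl could be compared (-0.06). At least 1 of the 8 was found in 11 of 24 and 10 of 30 wells. Of 22 Hippo pathway and Yap target genes 10 could be compared, 0 were called and the median was 0.31. The target Ankrd1 stood at 1.93, in 14 of 24 and 8 of 30 wells, while Tead1 stood at -1.47 and Yap1 at -1.33, the latter in 2 and 8 wells.

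Of 26 genes of the Notch and collagen V axis, which signals to the calcitonin receptor in the niche, 11 could be compared, 0 were called and the median was 0.04. Col6a1 stood at 1.88, in 12 and 5 wells, and Col5a2 at 1.5, in 17 and 12 wells. Notch3 (0.82), Hes1 (0.61), Notch2 (0.04), Notch1 (-0.30), Heyl (-0.42) and Adam10 (-1.39), the protease that cleaves Notch, lay on both sides of 0. Col5a1 was found in 4 and 3 wells and Col5a3 in 5 and 4, too few to be compared. Laminin, integrin and niche adhesion genes, 10 of 26 compared, had a median of -0.03 with 0 called. Within them Col4a1, a basement membrane collagen, stood at 1.58 and the proteoglycan gene Bgn at -1.63.

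Quiescence genes had a median of 0.32 over 16 compared of 29 listed, with 1 higher, Zfp36, and 0 lower. Btg2, an antiproliferative gene, stood at 1.28 and Fmr1 at 0.79. Zfp36 and Btg2 are also on the list of immediate early genes, so the lists are not separate. Myogenic commitment genes had a median of 0.27 over 8 compared of 25, with Id3 called higher. Myod1, the factor of activated cells, was found in 6 of 24 and 10 of 30 wells with maxima of 379 and 2777 TPM and a difference of -0.71. Mki67, a marker of dividing cells, was found in 1 well of each group. Of 29 cell cycle genes 5 could be compared, with a median of -0.13 and 0 called. At least 1 of the 29 was found in 23 of 24 and 26 of 30 wells, with at most 5 in a well with Calcr and at most 13 in a well without, and their summed level reached 1135 and 2190.2 TPM. Pcna, the sliding clamp of DNA replication, was found in 12 of 24 and 8 of 30 wells (0.97). Cdkn1a, a cell cycle inhibitor gene, was found in 15 and 16 wells (0.48).

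Housekeeping lists had medians near 0, with some members far from it. The 36 cytosolic ribosomal protein genes had a median of 0.14, with 27 above 0 and 0 called, between -0.74 for Rpl19 and 0.74 for Rpl5. Over all genes 1619 of 3356 lay above 0 and 1.49% were called. Of 29 nuclear-encoded respiratory chain genes compared, only Sdha was called, and the median was -0.19. The members ranged from -2.66 for Sdha to 1.53 for Ndufa10, with 3 at or below -1. The 14 mitochondrially encoded genes compared had a median of 0.02 with 0 called, from -1.94 for mt-Nd3 to 0.94 for mt-Co3.

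**Figure D4:**
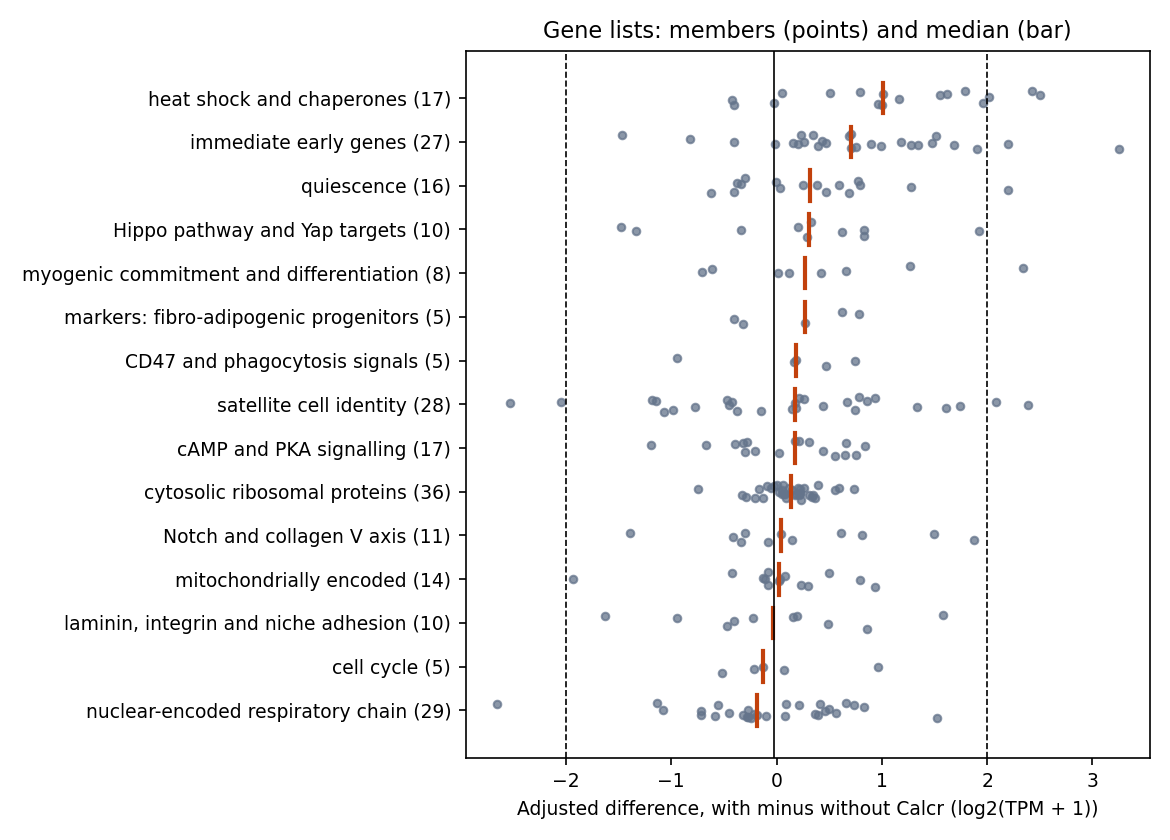
Adjusted differences of the members (points) of each list with at least 5 genes compared, and the list's median (bar); the number of genes compared is in brackets. The solid line is the median of all genes, -0.02, and dashed lines mark 2 log2 units. Heat shock genes (median 1.02) and immediate early genes (0.71) lie furthest to the right. The lists were chosen with earlier results of these data known.

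The mouse of 24 months, which the rule did not use, offered few wells. Of its 31 wells 7 had at least 1000 detected genes, and 2 of these had Calcr, at 5.28 and 99.0 TPM. They held 2083 and 2950 detected genes, against 1041 to 2587 in the 5 wells without Calcr. Of the 3356 genes 29.7% had a plain difference of 2 or more and 4.65% one of -2 or less, and after adjustment for detected genes 19.4% and 18.5%. Of the 23 genes higher in the young wells 18 (78.3%) lay above 0 in the plain difference of the old wells, and so did 19 (70.4%) of the 27 lower genes, beside 60.3% of all genes. In the adjusted difference 60.87% of the higher, 62.96% of the lower and 46.01% of all genes lay above 0, with medians of 0.57, 0.78 and 0. The direction of the young lower genes was thus not repeated in the old wells, and the share of the young higher genes lay near that of the lower ones.

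Single genes in the old wells went both ways. Fos stood at 1859 and 934 TPM in the 2 wells with Calcr and at 4279, 241, 20.2, 0 and 0 TPM in those without, so the highest value was in a well without Calcr. Chrdl2 stood at 331 and 242 TPM with Calcr and at 312, 181, 59.6, 2.07 and 0 TPM without. Mt2 stood at 117 and 0 TPM with Calcr and at 1208, 322, 318, 278 and 0 TPM without. These 3 kept the direction of the young wells in their means of log2(TPM + 1), with overlap. Musk stood at 169.9 and 149 TPM with Calcr and at 16.2, 1.18, 0.98, 0 and 0 TPM without, the opposite of the young wells. Stag2 was at 0 in both old wells with Calcr and also in most of those without. It was thus too rarely found in these wells for a direction to be read.

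In the bulk libraries of 3 young mice, pools of many cells, the genes of both directions were present. These mice are 3 months old by the age label, but the sample descriptions give 2 months. Calcr stood at 244 ± 89.0 TPM (SD, n = 3 libraries), Fos at 1188 ± 75.3 TPM, Hspa1a at 804 ± 42.2 TPM and Chrdl2 at 127 ± 49.8 TPM. Mt2 stood at 1502 ± 692 TPM, Glul at 191 ± 60.8 TPM and Musk at 24.97 ± 16.7 TPM. Bulk and well libraries were scaled separately, so these levels are not compared with those of the wells. In the pools, a share of cells with a transcript and its level per cell cannot be told apart.

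The size of a difference depended on the log scale and on which wells were used. Of the 28 named genes called, only Fos stayed at 2 or more under every setting run, with a range of 2.41 to 4.56. With 10 added to TPM in place of 1, on the same 54 wells, 1 gene was called higher and 0 lower. That setting alone thus left no named gene called but Fos. When the wells of 1 index number were left out in turn, Fos ranged from 2.65 to 4.35, Stag2 from 2.29 to 3.37, Glul from -3.04 to -2.35 and H2afv from -3.52 to -2.34, all still past the size for a call. In the same runs Hspa1a ranged from 1.86 to 3.16, Chrdl2 from 1.72 to 3.21 and Spry1 from 1.56 to 2.46. The number of higher genes was 43 (1.48% of 2914) without the wells of index N505. The number of lower genes was 43 (1.44% of 2987) without those of index N501. With the N5 index as a further term the counts were 39 higher and 43 lower, and these kept 19 of the 23 higher and 21 of the 27 lower genes. With the N7 index they were 31 and 30, which kept 16 and 16.

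**Figure D5:**
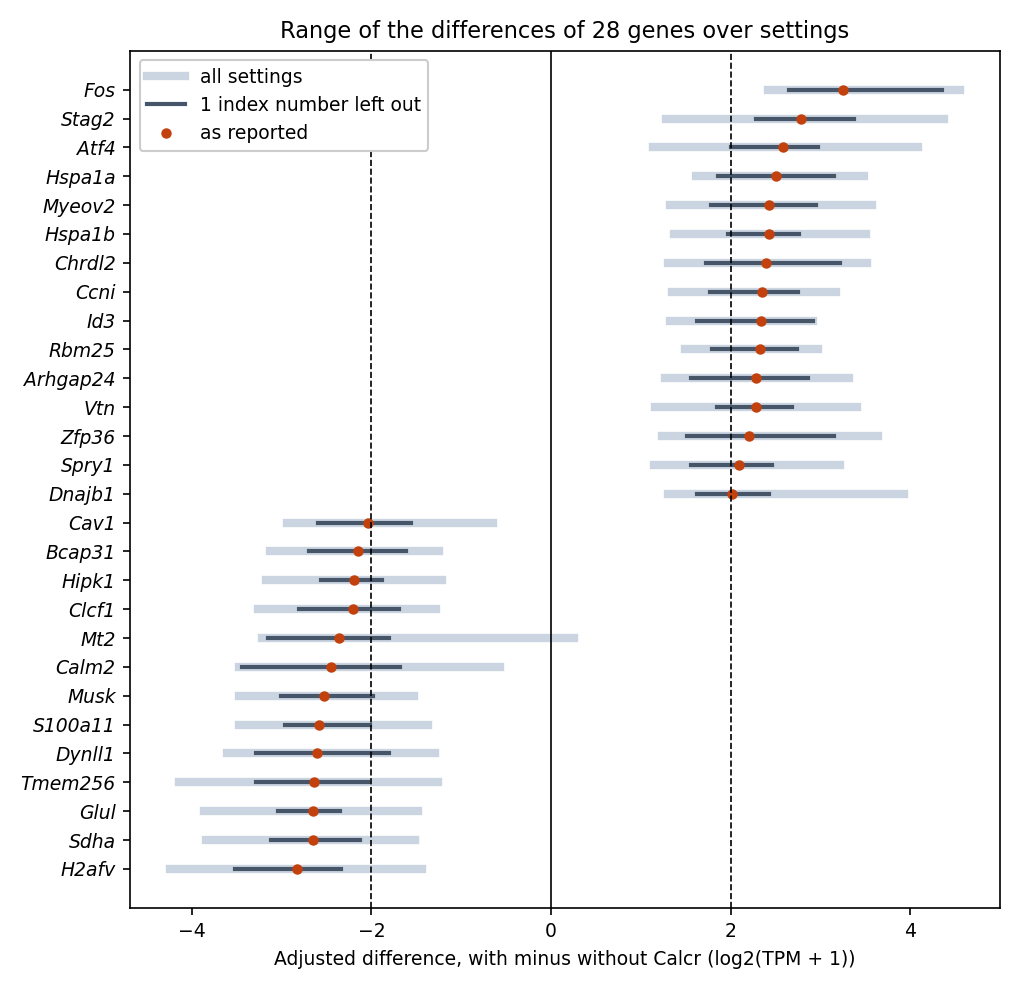
Adjusted differences of the 28 named genes called: as reported (points), their range when the wells of 1 index number are left out (dark bars) and over all settings (pale bars). Fos alone stays beyond 2 log2 units throughout, and Mt2 alone crosses 0.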

How the data were processed

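RNA-seq values of single wells and bulk libraries were used as deposited: TPM, per the labels, with STAR alignment to mm10 per the submitters' processing notes. Quantifier, annotation, strand setting and read depth: not given in the sources used here; precision rests on the number of wells. Of 45797 entries in the table of wells, 43282 carry Ensembl IDs; 92 are spike-ins and 2423 have neither and were left out. A gene counted as detected at 1 TPM. Well groups follow the rule of 1000 detected genes and 1 TPM of Calcr. Per gene, log2(TPM + 1) was fitted by least squares (numpy 2.4.6, pandas 2.3.3, scipy 1.17.1, Python 3.11.15; matplotlib 3.10.9 for figures) on group and log2 detected genes, for genes found in at least 10 wells. A size of 2 log2 units, which cannot be read as a fold here, replaced a test, since each age had 1 mouse. The fit was tested on simulated data with normal noise and no excess of zeros. This checks the calculation, not the calls in wells with many zeros. Members and the 25 gene lists were chosen with earlier results of these data known. Named genes were 30 fixed genes, the 12 largest differences in each direction among named genes, up to 4 per list and up to 10 called in both mice. Alternatives changed covariates, pseudocount, filters, thresholds, scaling and wells left out. Positions are from GENCODE vM21.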

Additional observations from a re-analysis of the deposited data

How the results depend on the processing

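Wells of 1 mouse per age give no test, and TPM hides depth. No paired analysis was possible because no result comes from a test and the wells carry no shared replicate numbers. Beside 23 higher and 27 lower genes, the counts were 37 and 12 with no covariate, 108 and 121 with a pseudocount of 0.1, 1 and 0 with a pseudocount of 10, and 13 and 9 for genes in at least 27 wells. They were 1 and 0 at 3 log2 units and 111 and 84 in wells with 2000 or more detected genes. After rescaling without spike-ins and mitochondrial genes they were 59 and 60. Some settings compared other numbers of genes. The main counts were 0.685% and 0.805% of 3356 genes. For genes in at least 27 wells they were 1.30% and 0.899% of 1001. In wells with 2000 or more detected genes they were 6.30% and 4.77% of 1762, and after rescaling 1.62% and 1.65% of 3644. Only 12 wells with Calcr had 2000 or more detected genes. Leaving out the wells of 1 index number gave 21 to 43 higher and 27 to 43 lower genes, among 2877 to 3077 genes compared. Among alternatives chosen after seeing the data, the N5 index as a further term gave 39 and 43 (1.16% and 1.28%). Without wells with Calcr from 1 to 10 TPM the counts were 34 and 34, each 1.11% of 3060 genes. Over all settings the 28 named genes called gave 758 values still past 2 log2 units in their direction, 176 short of it and 1 reversed, Mt2 at 0.26 in wells with 2000 or more detected genes. The pseudocount and rescaling act on the log scale itself; for the other settings the cause was not tested.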
